A study of Mus musculus with 12 samples.

Results

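The genes described here are 7 acyl-CoA thioesterases (Acot1, Acot2, Acot3, Acot4, Acot8, Acot12 and Acot13) and 2 transporters of the peroxisomal membrane (Abcd2 and Abcd3). They were taken by symbol from a table of 22618 genes, and all 9 were found and tested, among 17142 tested genes in all. Mouse liver was profiled by stranded total RNA sequencing, after removal of ribosomal RNA, at zeitgeber time (ZT) 2, 6, 10, 14, 18 and 22. Each time point had 2 libraries, giving 12 in all. Every group was male, C57BL/6j, 12 to 16 weeks old and conventional raised, was fed at night and carried the Cry1/2 DKO, the loss of both cryptochrome genes, which encode repressors of the circadian clock. Time of day was thus the only factor that the labels gave as differing between groups. Feeding, light and time of day went together, so their parts cannot be told apart here. Wild-type livers were not analysed here, so the effect of the genotype was not tested. Night stands for ZT14, ZT18 and ZT22 and day for ZT02, ZT06 and ZT10, the dark phase being taken to begin at ZT12, as is usual. The labels do not state whether each library is a different mouse, and the p-values therefore reflect only library-to-library spread. In bulk liver RNA, fewer cells of a type and less RNA per cell cannot be told apart.

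Fatty acids enter metabolism as coenzyme A (CoA) thioesters. Acyl-CoA synthetases make these esters, β-oxidation shortens them in mitochondria and peroxisomes, and acyl-CoA thioesterases cut them back into a free acid and CoA. Thioesterases of the Acot1 family act on acyl-CoAs in different compartments, whereas the ABCD transporters carry acyl-CoAs into peroxisomes. In liver several of these genes are known targets of PPARα, the fatty acid-activated nuclear receptor of the fasting response.

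Library totals were between 34715506 and 46074052 counts, so a count of 0 would allow 0.0864 CPM in the smallest library and 0.0651 CPM in the largest (3 counts of the total, covering counting error only). Levels are in CPM, counts divided by sequencing depth and corrected for library composition (TMM). At every time the 2 libraries differed beyond sampling noise, the chi-square per degree of freedom being lowest at ZT18 (15.5) and highest at ZT10 (92.2). By that measure the ZT10 libraries stood furthest apart. By the median absolute log2 difference of genes of at least 5 CPM, ZT06 (0.171) and ZT14 (0.166) were above ZT10 (0.163). Results that rest on the ZT10 libraries are given with and without ZT10 replicate 1. Reads remained at both targeted genes, with Cry1 at 8.72 CPM and Cry2 at 17.7 CPM on average over the 12 libraries. Gene counts do not show which exons those reads came from, so they do not check the genotype label. The summed level of 6 hepatocyte markers was 74120 to 83320 CPM at night and 80690 to 108700 CPM by day. Of the lists for other cell types, sinusoidal endothelial markers had the highest sum in any library, 484 CPM, while pancreatic acinar markers reached 20.9 CPM and lymphocyte markers 6.70 CPM.

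Acot1, Acot2, Acot3 and Acot4 are neighbours on the plus strand of chromosome 12 (GRCm38, GENCODE M21), in a cluster that spans 123489 bases up to the end of Acot6. Acot2 (ENSMUSG00000021226) lies at chr12:83987861-83993873 and Acot1 (ENSMUSG00000072949) at chr12:84009490-84018371. Acot4 (ENSMUSG00000052392) lies at chr12:84038379-84048601 and Acot3 (ENSMUSG00000021228) at chr12:84052144-84060402. Acot5, also in the cluster, was not analysed here. The coding sequences of Acot1 and Acot2 were 85.58% identical and shared an unbroken identical run of 273 bases. Acot1 and Acot3 were 81.48% identical, Acot1 and Acot4 73.75%, and Acot3 and Acot4 72.47%. A 90-base coding stretch within that run is printed to show how far a read can tell the 4 genes apart, with capitals for the bases that differ from Acot1. It comes from chr12:84017097-84017186 for Acot1, chr12:83992819-83992908 for Acot2, chr12:84058744-84058833 for Acot3 and chr12:84043514-84043603 for Acot4.
Acot1: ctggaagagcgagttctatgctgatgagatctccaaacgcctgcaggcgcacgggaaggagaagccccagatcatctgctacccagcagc
Acot2: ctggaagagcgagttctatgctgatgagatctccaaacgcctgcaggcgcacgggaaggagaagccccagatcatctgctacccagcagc
Acot3: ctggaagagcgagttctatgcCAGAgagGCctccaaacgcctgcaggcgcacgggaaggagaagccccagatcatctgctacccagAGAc
Acot4: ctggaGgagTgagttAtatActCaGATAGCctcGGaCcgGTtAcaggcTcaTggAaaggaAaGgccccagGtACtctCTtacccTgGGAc

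In that stretch Acot2 had no difference from Acot1, Acot3 had 9 and Acot4 had 31. Over whole transcripts, 12.4% of the 100-base words of Acot1 and 17.1% of those of Acot2 also occurred in another gene's transcript, and all 359 shared words of Acot2 were shared with Acot1. For Acot3 the share was 15.9%, of which 330 words were shared with Gm49366, a gene model that reads through from Acot4 to Acot3, and 104 with Acot1. For Acot4 the share was 8.24%, nearly all of it with 4732463B04Rik, a transcript antisense to Acot3 and Acot4. How reads that fit more than 1 gene were counted is not given in the sources used here, so the split of counts within the cluster is uncertain. These shares do not bound the error, since the partner can be the more abundant gene, as Acot1 was for Acot2. Acot13, Abcd2 and Abcd3 shared no 100-base word with another gene. Acot8 shared 7.14% with Snx21, on the opposite strand, and Acot12 shared 1.57% with 4833422C13Rik.

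Acot3 had the widest daily range of the 9 genes. Mouse Acot3 encodes a peroxisomal thioesterase of long-chain acyl-CoAs. Its level was 46.9 and 44.7 CPM at ZT02, 36.2 and 92.8 CPM at ZT06, 13.9 and 51.9 CPM at ZT10, 13.0 and 12.4 CPM at ZT14, 5.91 and 3.45 CPM at ZT18, and 7.78 and 7.33 CPM at ZT22, replicate 1 first. Every night library lay below every day library, with the highest level in ZT06 replicate 2 and the lowest in ZT18 replicate 2. The mean was 8.30 ± 3.72 CPM at night and 47.7 ± 25.8 CPM by day (SD, n = 6 each), a 6.00-fold lower level at night (log2 difference -2.59 ± 0.32, SE, edgeR quasi-likelihood test, adjusted p = 0.00224). A 24 h cosine fitted to log2 CPM gave a range, the fitted peak divided by the fitted trough, of 12.7-fold (95% interval 5.27 to 30.7) with a peak at ZT 5.98 ± 0.59 h (SE). The 24 h test had adjusted p = 0.00247. Both calls held in all 21 alternatives, with adjusted p of at most 0.0243 for the 24 h test and 0.0149 for night against day.

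Acot1 and Acot4 fell less at night. Acot1 encodes the cytosolic thioesterase of long-chain acyl-CoAs. Its level was 49.0 and 65.4 CPM at ZT02, 38.8 and 54.8 CPM at ZT06, 36.4 and 67.6 CPM at ZT10, 24.1 and 32.1 CPM at ZT14, 23.6 and 21.5 CPM at ZT18, and 26.7 and 20.3 CPM at ZT22. No night library reached the lowest day library. The mean was 24.7 ± 4.23 CPM at night and 52.0 ± 13.1 CPM by day (SD, n = 6 each), 2.11-fold lower at night (log2 -1.08 ± 0.16, SE, edgeR adjusted p = 0.00495). The fitted 24 h range was 2.63-fold (1.60 to 4.33) with a peak at ZT 6.11 ± 0.87 h (edgeR adjusted p = 0.0152). The night and day call held in all 21 alternatives, and the 24 h call was lost only without ZT02 replicate 1 and ZT06 replicate 2 together (adjusted p = 0.0627).

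Acot4 encodes a peroxisomal thioesterase of dicarboxylic acyl-CoAs such as succinyl-CoA. Its level was 43.9 and 43.0 CPM at ZT02, 40.1 and 56.7 CPM at ZT06, 26.1 and 42.8 CPM at ZT10, 24.4 and 26.4 CPM at ZT14, 18.2 and 18.4 CPM at ZT18, and 19.7 and 22.9 CPM at ZT22. Night and day overlapped only between ZT10 replicate 1 and ZT14 replicate 2. The night mean was 21.7 ± 3.40 CPM against 42.1 ± 9.78 CPM by day (SD, n = 6 each; log2 difference -0.96 ± 0.12, SE, edgeR adjusted p = 0.00249). The fitted range was 2.64-fold (1.89 to 3.68) with a peak at ZT 5.81 ± 0.58 h (edgeR adjusted p = 0.00317). Like those of Acot3, both calls of Acot4 held in all 21 alternatives (adjusted p of at most 0.0281 and 0.016).

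Acot2, whose product is the mitochondrial matrix counterpart of Acot1, was at a lower level and its calls were less stable. It stood at 11.9 and 13.3 CPM at ZT02, 10.2 and 14.2 CPM at ZT06, 4.21 and 15.4 CPM at ZT10, 5.88 and 6.71 CPM at ZT14, 5.15 and 5.64 CPM at ZT18, and 7.72 and 4.57 CPM at ZT22. The lowest and the highest of the 12 libraries were thus the 2 libraries of ZT10. Without ZT10 replicate 1 every night library lay below every day library. The mean was 5.95 ± 1.13 CPM at night and 11.5 ± 4.02 CPM by day (SD, n = 6 each; log2 difference -0.95 ± 0.26, SE, edgeR adjusted p = 0.0462), and the fitted range was 2.44-fold (1.25 to 4.75; peak at ZT 5.03 ± 1.27 h, edgeR adjusted p = 0.0472). Leaving out 1 library ended the night and day call in 11 of 12 cases, the exception being ZT10 replicate 1, and so did a fit with the replicate number as a block (adjusted p = 0.053). The 24 h call survived the loss of ZT06 replicate 1, ZT10 replicate 1 or ZT10 replicate 2 but not that of any of the other 9 libraries (highest adjusted p in any alternative 0.18).

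**Figure D1:**
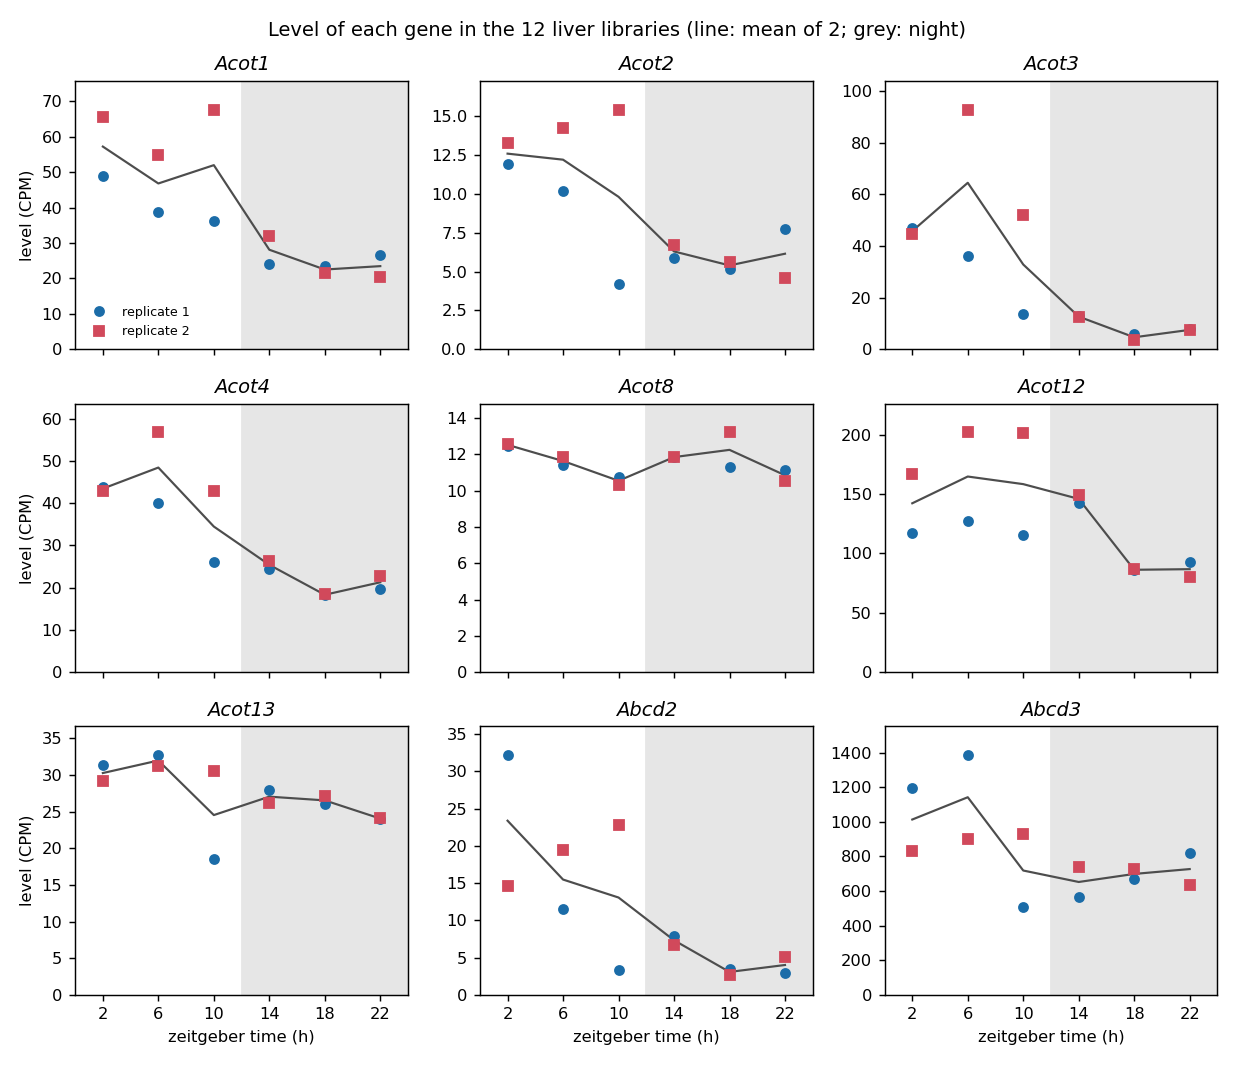
Level of each gene (CPM, vertical axis from 0) against zeitgeber time (h). Circles are replicate 1 and squares replicate 2, lines join the means of the 2 libraries, and grey marks night. Acot3 falls from 92.8 CPM in ZT06 replicate 2 to 3.45 CPM in ZT18 replicate 2, while Acot8 stays between 10.3 and 13.2 CPM.

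Acot8, Acot12 and Acot13 lie outside the cluster. Acot12 (ENSMUSG00000021620, chr13:91741512-91786148, plus strand) encodes a cytosolic acetyl-CoA hydrolase. Its level was 117 and 167 CPM at ZT02, 128 and 202 CPM at ZT06, 116 and 201 CPM at ZT10, 143 and 149 CPM at ZT14, 85.9 and 86.4 CPM at ZT18, and 92.9 and 80.4 CPM at ZT22. Both ZT14 libraries lay within the day range, and the other night libraries lay below it. The mean was 106 ± 31.0 CPM at night and 155 ± 40.5 CPM by day (SD, n = 6 each; log2 difference -0.59 ± 0.15, SE, edgeR adjusted p = 0.038). The fitted range was 1.99-fold (1.31 to 3.00) with a peak at ZT 8.05 ± 1.02 h (edgeR adjusted p = 0.0279). Its night and day call survived the loss of ZT02, ZT06 or ZT10 replicate 1 but not that of any of the other 9 libraries (highest adjusted p 0.105). The 24 h call ended when ZT06 replicate 2, ZT10 replicate 2, either ZT18 library or either ZT22 library was set aside (highest adjusted p 0.0744), and without ZT02 replicate 1 and ZT06 replicate 2 together (0.109).

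Neither Acot8 nor Acot13 passed any of the 3 tests. Acot8 (ENSMUSG00000017307, chr2:164792765-164804882, minus strand) encodes a peroxisomal thioesterase of broad substrate range, bile acid CoA esters included. It was at 11.3 to 13.2 CPM at ZT18, the time of its highest library, and at 10.3 to 10.8 CPM at ZT10, the time of its lowest. Night and day means were 11.7 ± 0.906 and 11.6 ± 0.907 CPM (SD, n = 6 each; log2 difference 0.01 ± 0.07, SE, edgeR adjusted p = 0.933), and the upper 95% limit of its fitted range was 1.22-fold. Acot13 (ENSMUSG00000006717, chr13:24817948-24831540, minus strand) encodes a small hotdog-fold thioesterase found at mitochondria. It was at 24.0 to 27.9 CPM in the night libraries and at 29.2 to 32.7 CPM in 5 of the 6 day libraries, with the remaining one, ZT10 replicate 1, at 18.5 CPM. Its means were 25.9 ± 1.58 CPM at night and 28.9 ± 5.25 CPM by day (log2 difference -0.15 ± 0.11, SE, edgeR adjusted p = 0.386). Without ZT10 replicate 1 Acot13 passed both tests, with a log2 difference of -0.26 (edgeR adjusted p = 0.0326) and an adjusted p of 0.0436 in the 24 h test. Without ZT10 replicate 2 the difference was -0.02 (edgeR adjusted p = 0.88).

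The ABCD transporters differed in abundance, and Abcd2 was called lower at night whereas Abcd3 was not. Abcd2 (ENSMUSG00000055782, chr15:91145871-91191799, minus strand) encodes a peroxisomal importer of very-long-chain and polyunsaturated acyl-CoAs. Its level was 32.2 and 14.6 CPM at ZT02, 11.5 and 19.4 CPM at ZT06, 3.31 and 22.8 CPM at ZT10, 7.92 and 6.71 CPM at ZT14, 3.49 and 2.64 CPM at ZT18, and 2.91 and 5.09 CPM at ZT22. ZT10 replicate 1 was the only day library within the night range, and ZT02 replicate 1 was the highest of the 12. The mean was 4.79 ± 2.16 CPM at night and 17.3 ± 9.92 CPM by day (SD, n = 6 each), 3.75-fold lower at night (log2 difference -1.91 ± 0.40, SE, edgeR adjusted p = 0.017). The fitted range was 5.43-fold with a wide interval, 1.62 to 18.2, and a peak at ZT 5.64 ± 1.21 h (edgeR adjusted p = 0.0385). The night and day call ended when ZT14 replicate 1, ZT22 replicate 1 or either ZT18 library was set aside (highest adjusted p in any alternative 0.0731). Without ZT10 replicate 2 the difference was smaller, -1.25, and still called (edgeR adjusted p = 0.0204). The 24 h call survived only the loss of ZT02, ZT06 or ZT10 replicate 1 among single libraries (highest adjusted p 0.0995).

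Abcd2 is also known as an adipocyte gene, so the adipocyte markers stand beside it. Of 6 listed adipocyte markers 5 were measured, and their sum was 4.81 to 9.53 CPM at night and 6.18 to 8.77 CPM by day. Nearly all of the sum was Fabp4, a fatty acid-binding protein gene, which was at 4.64 to 8.77 CPM and highest in ZT02 replicate 1, the library with the highest Abcd2. The other 4 markers (Adipoq, Plin1, Cfd and Retn) were at 0 in that library, and Plin1 was at 0 in 10 of the 12 libraries and Adipoq in 4. The part of adipocyte RNA in the level of Abcd2 was not tested.

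Abcd3 (ENSMUSG00000028127, chr3:121758774-121815302, minus strand) encodes PMP70, the abundant importer of branched-chain, dicarboxylic and bile acid precursor acyl-CoAs. Its level was 1198 and 829 CPM at ZT02, 1386 and 899.6 CPM at ZT06, 505 and 933 CPM at ZT10, 565 and 740.0 CPM at ZT14, 669 and 729 CPM at ZT18, and 818 and 636 CPM at ZT22. The lowest library was again ZT10 replicate 1, and without it every night library lay below every day library. With all 12 libraries the mean was 693 ± 88.9 CPM at night and 958 ± 306 CPM by day (SD, n = 6 each), and the log2 difference of -0.44 ± 0.17 (SE) did not pass (edgeR adjusted p = 0.133). The fitted range of 1.68-fold (1.08 to 2.63) did not pass either (edgeR adjusted p = 0.0865). Without ZT10 replicate 1 both did, with a log2 difference of -0.57 (edgeR adjusted p = 0.0466) and an adjusted p of 0.0312 in the 24 h test. Without ZT10 replicate 2 the difference was -0.28 (edgeR adjusted p = 0.291). DESeq2 on all 12 libraries also called Abcd3 (adjusted p = 0.038 for night against day and 0.0219 for the 24 h test).

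Over the 9 genes, 6 were called in the 24 h test (edgeR, adjusted p under 0.05 among all tested genes), against 12.0% of all tested genes. The same 6, Acot1, Acot2, Acot3, Acot4, Acot12 and Abcd2, were lower at night, against 4.89% of all tested genes, and none was higher, against 4.80%. Higher levels at night were not found at an unadjusted p under 0.05 (edgeR) or by DESeq2 or voom either. Of the 6, voom called 4 in the 24 h test, losing Acot2 (adjusted p = 0.0733) and Abcd2 (0.0803), and 5 at night, losing Acot2 (0.0742). Scaling by total counts alone lost Acot2 in both tests (edgeR adjusted p = 0.0561 in each) and Acot12 at night (0.0587). In either direction 9.70% of tested genes differed between night and day. The test of any difference among the 6 time points, which assumes no shape, called Acot1, Acot3 and Acot4 (edgeR adjusted p = 0.0379, 0.0158 and 0.0174), 3 of 9 against 4.82% of all tested genes. Night lay below day without overlap for 2 of 9 genes, Acot1 and Acot3, against 2.10% of all tested genes. Without ZT10 replicate 1 it did so for 7 of 9, all but Acot8 and Acot12, against 3.30%. ZT10 replicate 1 was the lowest day library of each of the 9 genes but Acot8. Leaving it out could thus raise this count but not lower it, and no other library was left out for it. The median night minus day difference was -0.95 on the log2 scale for the 9 genes and 0.01 for all tested genes, and the median fitted range was 2.44-fold against 1.31-fold. The counts moved with single libraries. The 24 h count was 3 of 9 without ZT06 replicate 2, either ZT18 library or either ZT22 library. The night and day count was 3 of 9 without ZT14 replicate 1, ZT22 replicate 1 or either ZT18 library. Acot1 did not keep its call over 6 time points when 1 library was dropped in 8 of 12 cases, nor under total counts alone (edgeR adjusted p = 0.0516). The count over 6 time points was 6 without either ZT10 library and 0 without either ZT18 library, where 5 genes had an unadjusted p under 0.05 (edgeR).

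**Figure D2:**
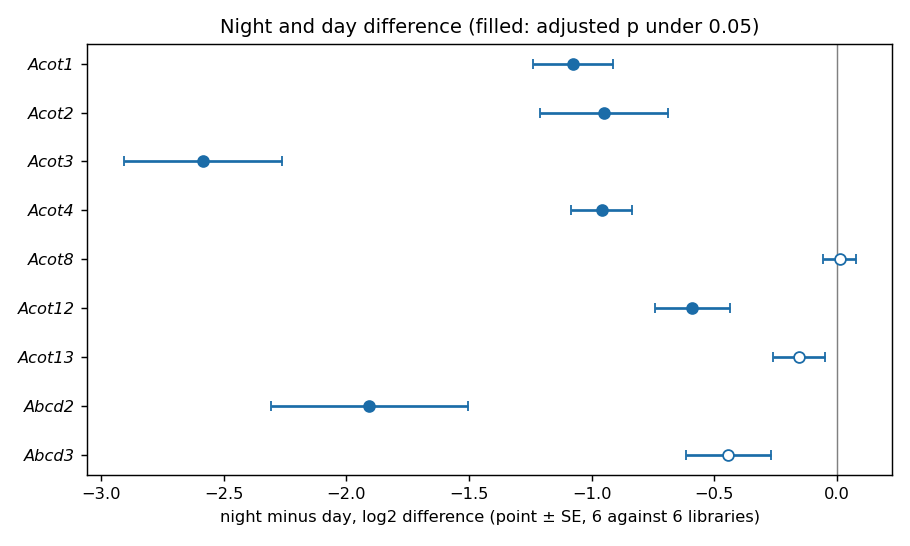
Night minus day difference of each gene (log2, horizontal axis) from the fit of 6 time points. Points are estimates with bars of 1 SE over 6 night and 6 day libraries, filled where the adjusted p is under 0.05. Acot3 lies furthest to the left at -2.59, Abcd2 next at -1.91, and Acot8 at 0.01.

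The cosine fits placed the peaks of the called genes in the light phase. Acot2, Abcd2, Acot4, Acot3 and Acot1 peaked between ZT 5.03 and ZT 6.11, with SEs of 0.58 to 1.27 h, so that these 5 estimates overlapped within 1 SE of each other. Acot12 was latest at ZT 8.05. Fitted alone, replicates 1 and 2 put the peak of Acot3 at ZT 5.16 and 6.45 and that of Acot4 at ZT 5.19 and 6.27. They were further apart for Acot2 (ZT 2.18 and 6.92) and Abcd2 (ZT 4.04 and 6.76). The night and day difference kept its direction in both replicate numbers for each of the 6 called genes, but was larger in replicate 2. For Acot3 it was -1.76 in replicate 1 and -3.13 in replicate 2, for Abcd2 -1.30 and -2.04, and for Acot12 -0.20 and -0.90 (log2 CPM).

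Levels of different genes were compared per kilobase of annotated exon. Abcd3 was by far the most abundant at 125 CPM per kb on average over the 12 libraries, followed by Acot12 at 39.7 and Acot13 at 36.8 CPM per kb. The cluster genes were lower, with Acot1 at 9.79, Acot3 at 8.15, Acot4 at 4.78 and Acot2 at 3.98 CPM per kb. Acot8 was at 5.81 and Abcd2 lowest at 1.86 CPM per kb. The 12 libraries of Abcd3 lay above all those of Acot12, and those of Acot13 above all those of Acot1. From highest to lowest mean the order was Abcd3, Acot12, Acot13, Acot1, Acot3, Acot8, Acot4, Acot2 and Abcd2, and every other pair of neighbours in it overlapped. That order is of means over all times and differed by time of day. In day means Acot3 was above Acot1, and Acot4 above Acot8, but not in every day library. Acot3 was below Acot1 at ZT10, at 4.03 and 15.1 beside 9.28 and 17.25 CPM per kb, and also in ZT02 replicate 2. Acot4 was below Acot8 in ZT10 replicate 1, at 3.91 beside 5.39 CPM per kb. In night means Acot13 was above Acot12, and Acot3 was below Acot1, Acot8, Acot4 and Acot2. Only for Acot3 against Acot1 and Acot8 did this hold in every night library. At ZT14 Acot12 was above Acot13 (43.3 and 45.2 beside 37.5 and 35.2 CPM per kb). Acot3 was above Acot2 at ZT14 (3.79 and 3.59 beside 2.68 and 3.06) and in ZT22 replicate 2 (2.13 beside 2.08). It was above Acot4 in ZT14 replicate 1 (3.79 beside 3.65). At ZT06 Acot3 was at 10.5 and 27.0 CPM per kb beside 9.90 and 14 for Acot1, whereas at ZT18 it was at 1.72 and 1.0 beside 6.01 and 5.48.

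Whether related genes differed in their night and day difference was tested on the log2 ratio of their counts within each library, which does not depend on scaling. Of 7 pairs, 4 differed between night and day (exact permutation test over the 12 libraries, two-sided, adjusted over the 7 pairs). The smallest p allowed is 0.00216. The test treats the 2 libraries of a time point as independent, and whole time points were not permuted. All 3 pairs that contain Acot3 were among the 4. The log2 ratio of Acot1 to Acot3 was 1.69 ± 0.60 at night and 0.29 ± 0.70 by day (SD, n = 6 each; difference 1.40, exact permutation p = 0.00649, adjusted p = 0.0152). That of Acot2 to Acot3 was -0.37 ± 0.67 and -1.96 ± 0.38, without overlap (difference 1.59, exact permutation p = 0.00216, adjusted p = 0.0152). That of Acot3 to Acot4 was -1.50 ± 0.53 and 0.01 ± 0.54, and overlapped only in that ZT10 replicate 1 lay within the night range (difference -1.51, exact permutation p = 0.00433, adjusted p = 0.0152). Acot3 thus fell further at night than each of its 3 neighbours. Abcd2 was also lower at night relative to Abcd3, with a log2 ratio of -7.28 ± 0.79 at night and -6.01 ± 0.85 by day (difference -1.27, exact permutation p = 0.026, adjusted p = 0.0455). This pair was no longer called after dropping either ZT02 library, ZT06 replicate 2, ZT10 replicate 2, either ZT18 library or either ZT22 library, whereas the 3 Acot3 pairs held in each of the 12 fits without 1 library.

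The pairs among Acot1, Acot2 and Acot4 did not pass. Their night minus day differences were -0.19 for Acot1 to Acot2 and -0.11 for Acot1 to Acot4 (exact permutation test, adjusted p = 0.573 for both), and 0.07 for Acot2 to Acot4 (adjusted p = 0.736). Acot1 and Acot2 are also the pair with the most shared sequence (359 words of 100 bases, 17.1% of Acot2), and its part in their ratio was not tested.

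**Figure D3:**
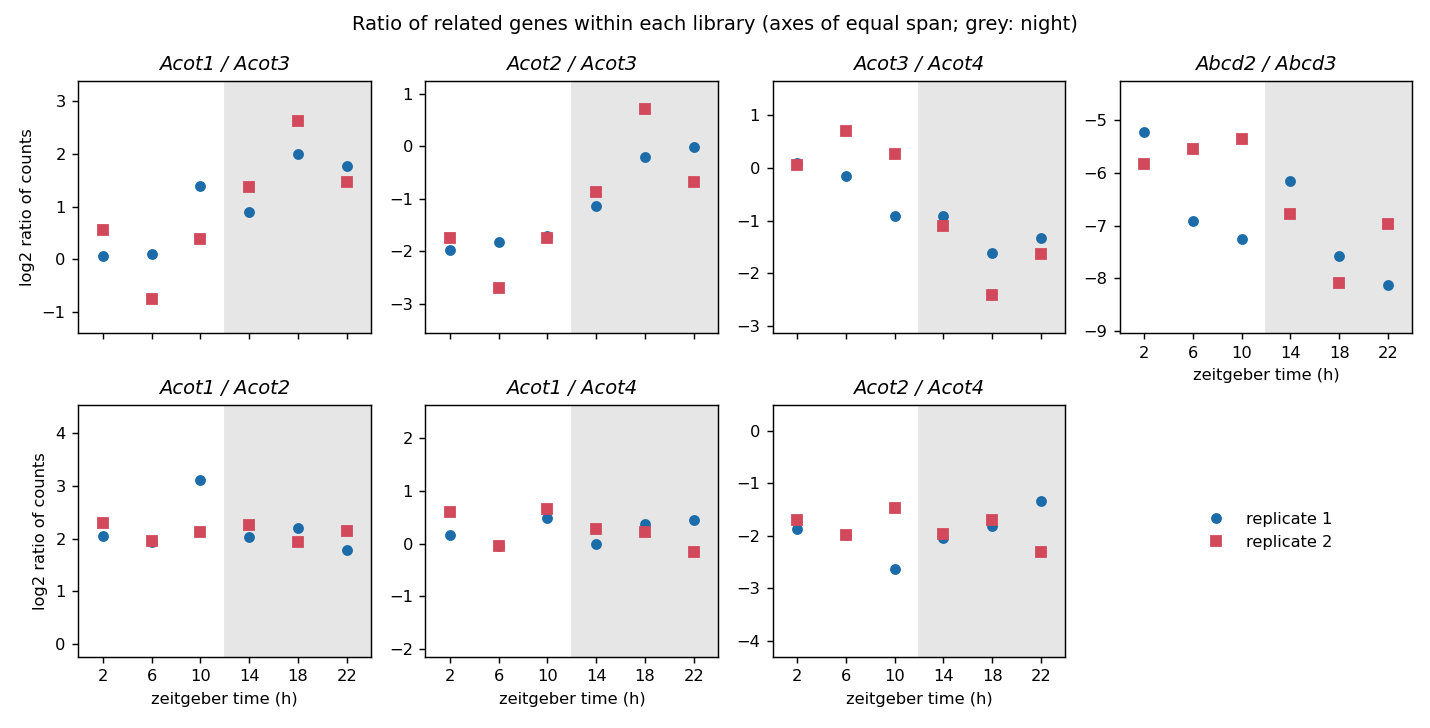
Log2 ratio of the counts of 2 related genes in each library (vertical axis, each spanning the same number of log2 units) against zeitgeber time (h), with circles for replicate 1, squares for replicate 2 and grey for night. In the 3 panels with Acot3 the ratio shifts between day and night by 1.40 to 1.59 log2 units in size, and the panels of Acot1, Acot2 and Acot4 among themselves shift by at most 0.19 in size.

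The direction of the difference between the 2 libraries was shared by most of these genes at ZT10 and ZT06, and less so at other times. At ZT10, replicate 2 was higher than replicate 1 for 8 of the 9 genes, 6.89-fold for Abcd2, 3.74-fold for Acot3, 3.66-fold for Acot2, 1.86-fold for Acot1 and 1.85-fold for Abcd3. Acot8 was the exception (log2 difference -0.06). Among 9876 tested genes of at least 5 CPM, 0.0608% differed more than Abcd2 between these libraries, 0.415% more than Acot3 and 0.435% more than Acot2, and the median of all was -0.01 on the log2 scale. At ZT06 replicate 2 was higher for 7 of 9 genes, at ZT14 and ZT18 for 6 of 9, at ZT02 for 4 of 9 and at ZT22 for 3 of 9. The share of all genes higher in replicate 2 was not counted. The median absolute difference of the 9 genes was 0.89 on the log2 scale at ZT10 and 0.50 at ZT06, against 0.16 and 0.17 for all genes of at least 5 CPM. At ZT02 it was 0.16 against 0.16, at ZT14 0.11 against 0.17, at ZT18 0.13 against 0.11 and at ZT22 0.22 against 0.12. The spread of these genes was thus widest at ZT10, then at ZT06.

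Marker lists at ZT10 are given beside this, and their part in it was not tested. The hepatocyte sum was 84920 CPM in replicate 1 and 80690 CPM in replicate 2. Most of it was Alb (62725 and 65706 CPM), and the markers in it did not move together. Like Alb, Apoa1 (3212 and 4294 CPM) was higher in replicate 2. Pck1 (5053 and 1845 CPM), Tat (1557 and 369 CPM), Cps1 (7289 and 5195 CPM) and Ttr (5086 and 3285 CPM) were higher in replicate 1. The Kupffer cell sum was 241 and 242.4 CPM, and the adipocyte sum 6.22 and 7.68 CPM. Pancreatic acinar markers were at 4.46 and 0.537 CPM, lymphocyte markers at 3.26 and 5.81 CPM, stellate cell markers at 326 and 391 CPM, endothelial markers at 367 and 418 CPM and cholangiocyte markers at 38.5 and 57.8 CPM. Total counts were similar, at 40343264 and 41205270.

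**Figure D4:**
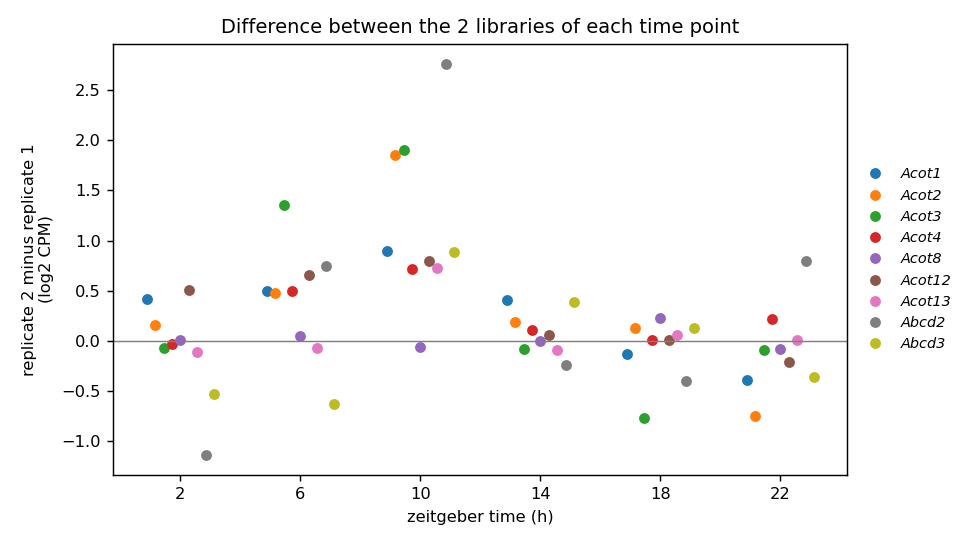
Replicate 2 minus replicate 1 (log2 CPM, vertical axis) of the 9 genes at each zeitgeber time (h); points of a time are spread sideways to be seen and each colour is a gene. At ZT10 all points but Acot8 lie between 0.71 and 2.77.

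Other genes of acyl-CoA metabolism were then counted the same way, from lists of the same or neighbouring steps. None of 6 tested other thioesterases passed the 24 h test or the night and day test in edgeR (median night minus day difference 0.01 on the log2 scale). At an unadjusted p under 0.05, or with DESeq2, 1 of them was higher at night, and voom called 0. Baat, which conjugates bile acids to amino acids, was at 262.1 CPM at night and 262.6 CPM by day (edgeR adjusted p = 0.994), and Acot7 was at 17.3 and 17.7 CPM (adjusted p = 0.832). Abcd4, a lysosomal ABCD transporter involved in cobalamin transport, was at 6.73 CPM at night and 6.93 CPM by day and did not pass the night and day test (edgeR adjusted p = 0.791). Of 18 acyl-CoA synthetases (median -0.05) none passed either test in edgeR. In the 24 h test 6 had an unadjusted p under 0.05, and 3 were called by DESeq2 and 1 by voom. At night 3 were lower at an unadjusted p under 0.05, 2 with DESeq2 and 0 with voom. The most abundant were Slc27a2 at 1520 CPM at night and 1812 CPM by day (adjusted p = 0.2) and Acsl1 at 1549 and 1740 CPM (adjusted p = 0.416). Whether these lists differ from the 9 genes was not tested.

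Within β-oxidation, the genes called in the 24 h test had fitted ranges of 1.37- to 1.89-fold. Of 21 peroxisomal genes, 4 passed the 24 h test (12.0% of all tested genes did) and 3 were lower at night (4.89% of all), none higher. Ehhadh, the bifunctional enzyme, had a range of 1.89-fold (edgeR adjusted p = 0.0157, as are the values in brackets that follow) and Crot, the carnitine octanoyltransferase that exports shortened chains, of 1.83-fold (0.0307). Hacl1, which splits α-oxidised chains, had 1.74-fold (0.00717), and Pex11a, a factor of peroxisome division, 1.78-fold (0.0329). Of 18 mitochondrial genes, 3 passed the 24 h test and 3 were lower at night, none higher, against the same 12.0% and 4.89%. With counts this small, no difference of either list from all genes was tested. Those named by the 24 h test were Cpt1a, the gatekeeper of mitochondrial import, at 1.83-fold (0.0315), Acadm, the medium-chain dehydrogenase, at 1.37-fold (0.032), and Eci2, an enoyl-CoA isomerase, at 1.55-fold (0.0398). Hacl1, Ehhadh, Crot, Cpt1a and Acadm were the called genes at night, with Acadl, the long-chain dehydrogenase, which was named after its values were seen (log2 difference -0.26, edgeR adjusted p = 0.0369). No gene of either list was called higher at night by edgeR, DESeq2 or voom, and at an unadjusted p under 0.05 (edgeR) 1 peroxisomal and 0 mitochondrial genes were. The list medians of the night minus day difference were -0.10 and -0.14 on the log2 scale, beside 0.01 over all tested genes.

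Among 21 tested other targets of PPARα, 6 passed the 24 h test (12.0% of all tested genes), 5 were lower (4.89% of all) and 3 higher at night (4.80% of all), with a median difference of -0.41. Cyp4a14, a fatty acid ω-hydroxylase, had a range of 5.97-fold (edgeR adjusted p = 0.0192) and fell by 1.90 on the log2 scale at night (0.00249), close to the fall of Abcd2. Cyp4a genes are close copies of each other, so the split of their counts is uncertain. Cd36, a fatty acid transporter, fell by 0.56 (0.0204). Plin5, a lipid droplet protein, and Mgll, the monoglyceride lipase, were higher at night, by 0.41 and 0.56 (0.0228 and 0.00562), with peaks at ZT 14.7 and 17.7. Chosen after their values were seen, Ppara itself fell by 0.52 (0.0355), Cyp4a10 by 0.96 (0.0167) and Ppargc1a, a PPARα coactivator gene, by 0.58 (0.0246), and Gpd1 was higher by 0.53 (0.0283). Of 11 genes that make or degrade CoA, the product of thioesterases, 1 was lower and 2 were higher at night (median -0.08), against 4.89% and 4.80% of all tested genes. Pank1, the pantothenate kinase that starts CoA synthesis, fell by 0.36 (0.0335) and Nudt8, a mitochondrial CoA diphosphohydrolase, rose by 0.24 (0.0289). The other called gene, Nudt7, a peroxisomal CoA diphosphohydrolase named after its values were seen, was higher by 0.47 (0.0335).

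The genes whose profiles lay nearest were found by Pearson's r of log2 CPM over the 12 libraries, among 11651 other genes of at least 1 CPM. These r values are a description over libraries that share a time course, and they carry no p. For Acot3 the nearest were Slc16a7 (r = 0.949), Cisd1 (0.94), Tprkb (0.938), Bche (0.938) and Cdo1 (0.938). Acot1 lay nearest to Crot (0.942), Zfand6 (0.941), Dcaf6 (0.939), Abcg5 (0.939) and Ypel3 (0.933). Abcd2 lay nearest to Tamm41 (0.95), Rgs16 (0.946), Slc22a26 (0.935), Bche (0.917) and Cyp2c38 (0.917). Among the 9 genes themselves the closest profiles were those of Acot3 and Acot4 (r = 0.985), then Acot4 and Abcd2 (0.916) and Acot1 and Acot3 (0.912). Acot8 had r between -0.02 and 0.375 with the other 8.

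The 250 bases before the start of each gene were searched for motifs of PPARα and of the clock. The table of upstream sequences (RefSeq, GRCm38.p6) matched 7 of the 9 genes, all but Abcd2 and Acot13. In upstream sequence Acot1, Acot2, Acot3 and Acot4 were 42.36% to 46.76% identical, against 67.48% to 85.58% for their coding sequences. Windows of unrelated genes were not aligned, so whether the upstream identity exceeds that of unrelated sequence was not tested. The windows of Acot3 (chr12:84051894-84052143, plus strand) and Acot4 (chr12:84038129-84038378, plus strand) are printed, since these genes had the closest profiles of the 9, with motif matches in capitals.
Acot3: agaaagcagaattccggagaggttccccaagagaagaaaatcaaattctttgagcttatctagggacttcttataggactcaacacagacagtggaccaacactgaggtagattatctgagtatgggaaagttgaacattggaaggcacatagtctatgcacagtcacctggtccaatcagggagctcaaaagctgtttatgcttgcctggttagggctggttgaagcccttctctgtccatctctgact
Acot4: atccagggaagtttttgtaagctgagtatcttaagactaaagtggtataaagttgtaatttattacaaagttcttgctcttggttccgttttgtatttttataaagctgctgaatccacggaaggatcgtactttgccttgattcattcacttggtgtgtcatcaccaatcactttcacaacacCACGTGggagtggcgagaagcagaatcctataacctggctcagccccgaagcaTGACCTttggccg

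The search used exact matches of 4 motifs on both strands, and near matches were not counted. The pattern read by PPARα and its partner, as 2 copies of AGGNCA with 1 base between, occurred in none of the 7 genes' windows and in 0.338% of the 32851 windows of the table. Its stricter form, 2 copies of AGGTCA with 1 base between, which the first pattern includes, was also in none and in 0.0335% of all windows. The E-box CACGTG, the CLOCK:BMAL1 motif, was found in Acot4 only, at bases -66 to -61 from the start, against 6.02% of all windows. The half-site AGGTCA, searched for by itself, was found on the opposite strand in Acot4, at -13 to -8, and in Acot12, at -110 to -105, against 14% of all windows. Read on that strand, the Acot4 half-site follows CGGCCA with 1 base between, and CGGCCA differs from AGGNCA only in its first base. How often such near matches occur in all windows was not counted. Windows of Acot1, Acot2, Acot3, Acot8 and Abcd3 held no exact match, which says nothing about inexact sites or sites elsewhere.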

How the data were processed

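The authors deposited raw counts of exon reads per gene for 12 liver libraries in 1 table, with no normalization applied. The submitters' processing notes name STAR 2.4.0i and the mm10 genome. How reads were counted, with which annotation and whether by strand, is not given in the sources used here. GENCODE M21 (GRCm38) held 22054 of the 22618 gene identifiers. Libraries had totals of 34715506 to 46074052 counts. Labels gave each library its time point and replicate number.

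The test program was edgeR 4.0.16 under R 4.3.3, with TMM scaling and its quasi-likelihood F-test. Genes of low count were removed by filterByExpr (minimum count 10, minimum total 15, grouped by time), and 17142 stayed. A model of 6 time points gave the night minus day contrast and the test of any difference, and a cosine of 24 h period, fitted as a cosine and a sine term, the daily test. A call means a Benjamini-Hochberg adjusted p under 0.05 among all tested genes. Each contrast's SE was obtained as its size over the square root of F. Ranges, peaks and their errors come from least squares on log2 CPM (prior count 2). Ratios of related genes used counts plus 0.5. The tests were checked on simulated counts.

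Alternatives were RLE factors, total counts only, no filter on low counts, DESeq2 1.42.0, voom in limma 3.58.1, a replicate block, leaving out each library, and leaving out 2 pairs of ZT02 and ZT06 libraries; one without both ZT10 libraries was added after seeing the data. The genes described and the lists were chosen with earlier results of these data known. Genes named beside the 9 were, per list, the 4 or fewer called in the 24 h test with the smallest adjusted p (for a list without any call, its 2 highest by mean CPM) and the 5 nearest profiles of Acot1, Acot3 and Abcd2. Clone and model names were skipped.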

Additional observations from a re-analysis of the deposited data

Results flagged for a closer look

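In the 18 groups of 6 libraries examined (9 genes, night and day each), 1 library stood apart from the rest of its group. Acot13 in ZT10 replicate 1 was at 18.5 CPM, below the other day libraries, of which the lowest was at 29.2 CPM. The gap was 0.75 of the group's whole range, above Dixon's 95% critical value for 6 values. Chance alone marks about 1 in 20 such groups. The same library was also the lowest day library for Acot1, Acot2, Acot3, Acot4, Acot12, Abcd2 and Abcd3, where the gap did not pass that value.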

How the results depend on the processing

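No called result changed sign under any alternative run. Differences near 0 that were not called did, for Acot8 (5 alternatives, down to -0.05 on the log2 scale), Acot2 to Acot4 (2), and Acot1 to Acot2 and Acot1 to Acot4 (1 each). Counts outside 1.5 times those of the main analysis were as follows. With DESeq2, 3416 genes passed the 24 h test and 2532 the test of any time difference, the latter including 6 of the 9 genes. Without ZT02 replicate 2 and ZT06 replicate 1 together, 1276 genes passed the 24 h test and 865 differed between night and day. Without ZT02 replicate 1 and ZT06 replicate 2 together, 568 genes and 2 of the 9 passed the 24 h test, 1107 genes and 3 of the 9 differed between night and day, and 1 of the 9 passed the test of any time difference. In these settings 0 of 7 gene pairs passed the exact permutation test (lowest adjusted p 0.0667), while 4 and 3 pairs had an unadjusted p under 0.05. Without both ZT10 libraries, an alternative chosen after seeing the data, 5 of the 9 passed the test of any time difference. Leaving out 1 library at a time gave 1201 to 2225 genes and 3 to 8 of the 9 in the 24 h test, 611 to 1818 genes and 3 to 8 of the 9 for night against day, 174 to 897 genes and 0 to 6 of the 9 for any time difference, and 3 to 4 of the pairs. Scaling by total counts alone moved the split of night and day calls from 823 higher and 839 lower to 1077 higher and 624 lower.

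The replicate numbers did not pair the libraries throughout. Of 15 pairs of time points, 5 had a correlation of same-numbered deviations above 0.1 and 5 below -0.1 (range -0.222 to 0.501 over 9876 genes). The highest, 0.501, was that of ZT02 and ZT06, whose same-numbered libraries thus shared part of their deviation, and the next was 0.258 (ZT14 and ZT18). With the replicate number as a block, 1896 genes and 6 of the 9 passed the 24 h test, 1609 genes and 5 of the 9 differed between night and day, 774 genes and 3 of the 9 passed the test of any time difference, and 4 pairs passed.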

Other observations

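Transcripts that overlap these genes on the other strand were measured too. AC133183.2, the deposited symbol of the transcript antisense to Acot3 and Acot4 (4732463B04Rik in GENCODE M21), had only 10 to 58 counts per library. It was at 0.315 ± 0.094 CPM at night and 0.895 ± 0.43 CPM by day (SD, n = 6 each; log2 difference -1.48, edgeR adjusted p = 0.0193), so it fell at night like its neighbours. Its reads and those of Acot3 and Acot4 cannot be told apart without the strand setting of the counting.

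Snx21, which encodes a sorting nexin, overlaps 246 bases (12.3%) of the exons of Acot8 on the opposite strand. It was at 8.66 ± 0.981 CPM at night and 13.4 ± 2.64 CPM by day (SD, n = 6 each; log2 difference -0.63, edgeR adjusted p = 0.0091), while Acot8 was at 11.7 and 11.6 CPM. The antisense transcript of Acot12, 4833422C13Rik, was at 1.17 and 1.66 CPM (edgeR adjusted p = 0.0494). Acot6, the last thioesterase gene of the cluster on chromosome 12, was at 1.76 ± 0.248 CPM at night and 1.64 ± 0.749 CPM by day and did not pass (edgeR adjusted p = 0.719).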
